A study of Mus musculus with 6 samples.

Results

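Semaphorins, ephrins, Slits and netrins are cell surface and secreted guidance cues, and plexins, neuropilins, Eph receptors, Robos and Unc5 proteins are their receptors. Genes of these families were taken by their mouse symbols, required to have at least 60 counts over all libraries, and left out where they lie on chromosome 14, on chromosome 3 at 85 to 160 Mb or on chromosome 7 at 5 to 35 Mb. This left 44 genes of the 25006 gene identifiers in the files. They comprised 13 semaphorins, 9 plexins and neuropilins, 5 ephrins, 9 Eph receptors, 5 Slit and Robo genes, and 3 netrin and Unc5 genes.

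Total RNA was sequenced from 2 murine lines of ovarian surface epithelial (MOSE) cells, the single cell layer that covers the ovary. The MOSE-PAX8 line overexpresses PAX8, a paired-domain transcription factor of the developing thyroid, kidney and Mullerian duct (3 libraries), and the MOSE-NEO line served as its reference (3 libraries). Both lines were kept under G418, the drug that selects for the introduced resistance gene, at 0.05 mg/mL. Each line is a single stable cell line, so PAX8 and any other difference between the lines cannot be told apart. The labels do not say whether a line is a clone or whether its libraries came from separate cultures, so the p-values measure no more than library-to-library spread, which may be technical.

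Guidance signalling mostly passes between neighbouring cells. Semaphorins bind plexins, with neuropilins as co-receptors for the secreted class 3 members, and plexins act on small GTPases. Ephrins are themselves bound to the membrane, so that an ephrin and an Eph receptor tyrosine kinase on adjoining cells can both signal, and the usual outcomes are repulsion, sorting and boundary formation. Slits act on Robos and netrins on Dcc, neogenin and Unc5 receptors, and all these systems also operate in epithelia and vessels outside the nervous system.

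Library totals ranged from 23623762 to 36367825 counts. Pax8 itself had 2570, 2973 and 3544 counts in the MOSE-PAX8 libraries and 0, 1 and 1 in the MOSE-NEO libraries. Mesothelial and ovarian surface markers summed to 9235 to 10887 CPM (counts scaled to library size) in MOSE-PAX8 and 15871 to 17653 CPM in MOSE-NEO. Of the 12 tested markers, 8 were lower in MOSE-PAX8 and 1, Cdh2, was 2.55-fold higher (edgeR adjusted p = 1.46e-05). Their levels were uneven, with Upk3b the largest at 2655 CPM in MOSE-PAX8 and 4317 CPM in MOSE-NEO. Krt8 averaged 0.317 CPM in MOSE-PAX8 and 0.788 CPM in MOSE-NEO, and Krt19 0.405 and 0.278 CPM. Cdh1 had 3 counts in MOSE-PAX8 and 1 in MOSE-NEO. Neuronal markers summed to at most 0.154 CPM in MOSE-PAX8 and 0.0869 CPM in MOSE-NEO, with Snap25, Stmn2 and Nefl at 0, and endothelial markers to at most 1.08 CPM in MOSE-PAX8 and 1.66 CPM in MOSE-NEO, with Cdh5 at 0. Stromal markers, mostly Col3a1, Col1a1 and Dcn, summed to 12400 to 13187 CPM in MOSE-PAX8 and 19902 to 23255 CPM in MOSE-NEO. The other stromal markers were scarce. Pdgfra had 6 counts in MOSE-PAX8 and 10 in MOSE-NEO, Pdgfrb 13 and 31, Lum 12 and 3, and Postn 11 and 6. Glial markers (mostly Mbp, with Olig2 at 0) summed to 284 to 339 CPM in MOSE-PAX8 and 358 to 388 CPM in MOSE-NEO. Granulosa markers (mostly Amhr2 and Nr5a1, with Fshr and Cyp19a1 at 0) summed to 255 to 312 CPM in MOSE-PAX8 and 290 to 305 CPM in MOSE-NEO. Leukocyte markers summed to 8.89 to 10.2 CPM in MOSE-PAX8 and 9.09 to 16.9 CPM in MOSE-NEO. Some single markers were called (edgeR): the leukocyte gene Ptprc was higher, with 196 counts in MOSE-PAX8 and 1 in MOSE-NEO (adjusted p = 0.000103), as was the granulosa gene Foxl2, with 182 counts in MOSE-PAX8 and 1 in MOSE-NEO (adjusted p = 0.000117). The leukocyte gene Csf1r was 2.52-fold lower (adjusted p = 0.00373). The part of these cell types in the guidance genes' levels was not tested. Within each line 1 library held more lincRNA counts than the others. These were MOSE-PAX8 2, with 0.330% of its counts against 0.164% and 0.195% in the other MOSE-PAX8 libraries, and MOSE-NEO 1, with 0.317% against 0.162% and 0.146% in the other MOSE-NEO libraries.

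All 44 guidance genes entered the test, and 12 were higher and 13 lower in MOSE-PAX8 at an adjusted p below 0.05 (edgeR quasi-likelihood test, Benjamini-Hochberg adjustment over 12313 genes). Of the members 56.8% were called, 27.3% higher and 29.5% lower. Among all genes tested, 33.9% were called, 17.9% higher and 16.1% lower. The members' median log2 fold change was -0.14, against 0.01 over all genes. Among the 44 members, 9 were called and differed by at least 2-fold, 7 of them higher and 2 lower. The shares of all genes tested that did so were 9.22%, with 6.07% higher and 3.15% lower. In 27 of the 44 members the MOSE-PAX8 and MOSE-NEO libraries did not overlap, and the share of all genes without overlap was 47.6%. Of the 12 higher genes, 5 (Sema5a, Sema6a, Sema7a, Epha7 and Epha8) reached the level of the low-count filter in MOSE-PAX8 libraries alone, so that their passing the filter already required a difference. Ephb2 reached it in all 3 MOSE-PAX8 libraries and 2 MOSE-NEO libraries. In 6 members, these 5 and Ephb2, fewer than 3 MOSE-NEO libraries were thus at that level. On MOSE-NEO alone none of them would have passed. Without both lincRNA-rich libraries 10 members were higher and 13 lower. The count of lower members fell to 8 without MOSE-PAX8 3.

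The promoter sequences that follow are shown because these members' RefSeq promoter windows hold GTCACG, the core of the paired-domain site that PAX2, PAX5 and PAX8 share. Windows spanned 250 bases before to 50 after the start site, and 37 of the 44 members had 1 or more (42 windows). The motif, searched on both strands as GTCACG or CGTGAC, was in 4 of the 42 windows (9.52%) and in 8.22% of all 32851 windows of that length. It was in windows of Epha4 and Ephb2, both higher in MOSE-PAX8, and of Sema4b and Efna5, both lower. The 250 bases before the RefSeq start site that the window belongs to are printed 5′ to 3′ on the gene's strand from GRCm38.p6, with the motif in capitals, for Epha4 (chr1:77515089-77515338, minus strand), Ephb2 (chr4:136836013-136836262, minus strand), Sema4b (chr7:80198338-80198587, plus strand, the second of its 2 windows, before a start site inside the gene annotated at chr7:80186841-80226527) and Efna5 (chr17:62881318-62881567, minus strand).
Epha4: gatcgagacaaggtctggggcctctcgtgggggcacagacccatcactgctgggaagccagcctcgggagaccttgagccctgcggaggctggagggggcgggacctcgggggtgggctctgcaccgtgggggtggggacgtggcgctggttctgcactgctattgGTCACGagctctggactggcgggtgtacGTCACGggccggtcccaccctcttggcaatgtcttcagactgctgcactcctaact
Ephb2: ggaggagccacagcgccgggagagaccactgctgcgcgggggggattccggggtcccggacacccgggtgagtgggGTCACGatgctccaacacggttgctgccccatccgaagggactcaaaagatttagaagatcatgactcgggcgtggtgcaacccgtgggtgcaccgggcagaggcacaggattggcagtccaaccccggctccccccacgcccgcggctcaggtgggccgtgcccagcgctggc
Sema4b: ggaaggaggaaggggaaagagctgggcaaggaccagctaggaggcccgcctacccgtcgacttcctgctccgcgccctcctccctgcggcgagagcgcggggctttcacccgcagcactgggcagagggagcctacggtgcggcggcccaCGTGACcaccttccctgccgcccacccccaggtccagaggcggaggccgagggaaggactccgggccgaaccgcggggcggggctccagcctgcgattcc
Efna5: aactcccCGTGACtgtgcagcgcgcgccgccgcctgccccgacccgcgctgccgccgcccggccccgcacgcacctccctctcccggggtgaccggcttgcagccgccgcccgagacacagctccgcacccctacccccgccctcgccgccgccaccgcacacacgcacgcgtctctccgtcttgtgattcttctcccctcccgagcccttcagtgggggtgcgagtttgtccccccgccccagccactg
Counting back from the base before the start site as -1, the motif's first base lay at -84 and -56 in Epha4, -174 in Ephb2, -100 in Sema4b and -243 in Efna5. The longer form GTCACGC (or GCGTGAC) was in 0 of the 42 member windows and in 2.09% of all windows. GGAATG (or CATTCC), the core of the TEAD site, was in 11.9% of the member windows, those of Epha1, Epha2, Plxnd1, Plxnb1 and Efnb2, and in 14.7% of all windows. These matches describe the letters of the windows and carry no information on binding.

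**Figure D1:**
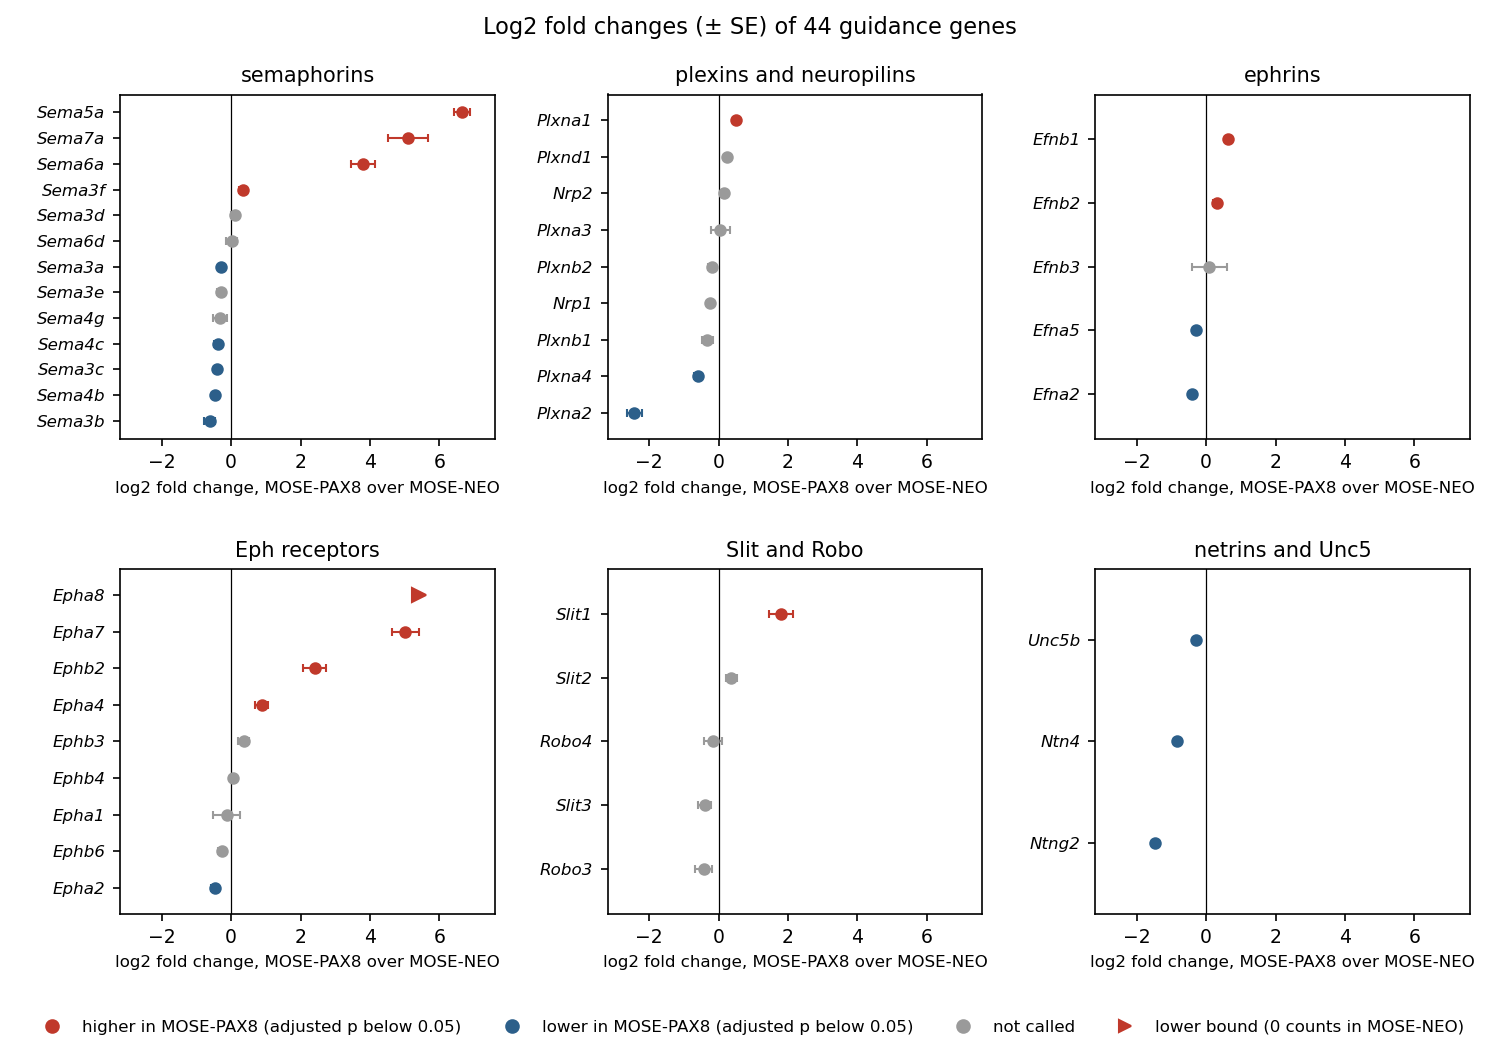
Log2 fold change, MOSE-PAX8 over MOSE-NEO, with its SE for each of the 44 guidance genes, in 6 panels by role. The largest values were positive and lay among semaphorins and Eph receptors, while all 3 netrin and Unc5 genes lay below 0; the triangle marks the lower bound of Epha8, which had 0 counts in MOSE-NEO.

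Semaphorin calls ran in both directions. Of the 7 membrane-bound semaphorins, 3 were higher and 2 lower in MOSE-PAX8, and of the 6 secreted class 3 semaphorins, 1 was higher and 3 were lower. Over all 13 semaphorins the median log2 fold change was -0.28. Sema5a, Sema7a and Sema6a, all low in level, held the 3 largest fold changes of the family, and the other called members differed by 1.54-fold or less.

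Sema5a, a transmembrane semaphorin with thrombospondin repeats in its extracellular part, had 17.4, 16.8 and 20.4 CPM in the MOSE-PAX8 libraries, against 0.127, 0.13 and 0.266 CPM in the MOSE-NEO libraries. In counts these were 636, 533 and 661 in MOSE-PAX8 and 4, 3 and 8 in MOSE-NEO. The lines did not overlap, and the level was 100.4-fold higher in MOSE-PAX8 (log2 fold change 6.65 ± 0.23 SE, edgeR adjusted p = 7.15e-07). The gene lies at chr15:32244810-32696341 (mm10). In bulk RNA a change in the number of expressing cells and a change in the RNA of each cell cannot be told apart.

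Sema7a, which is anchored to the membrane by a glycolipid and binds Plxnc1 and integrins, had 2.13, 2.92 and 3.98 CPM in MOSE-PAX8, against 0.0953, 0.174 and 0 CPM in MOSE-NEO (chr9:57940112-57962865). Every MOSE-PAX8 library was above every MOSE-NEO library. The log2 fold change was 5.10 ± 0.58 (SE; edgeR adjusted p = 0.000283). It rested on 7 counts in MOSE-NEO and was 5.83 without MOSE-NEO 2 and 4.50 without MOSE-NEO 3. The Plxnc1 receptor had only 12 counts over the MOSE-PAX8 libraries and 3 over the MOSE-NEO libraries and was not tested.

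Sema6a, a transmembrane ligand of Plxna2 and Plxna4, had 2.52, 3.96 and 4.01 CPM in MOSE-PAX8, against 0.286, 0.13 and 0.299 CPM in MOSE-NEO. The lines did not overlap, with 14-fold more in MOSE-PAX8 (log2 fold change 3.81 ± 0.35 SE, edgeR adjusted p = 0.000101). Sema6d, the class 6 relative that binds Plxna1, averaged 71.5 ± 8.99 CPM in MOSE-PAX8 and 70.8 ± 14.8 CPM in MOSE-NEO (SD, n = 3 each) and was not called (log2 fold change 0.02 ± 0.16 SE, edgeR adjusted p = 0.951).

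Both abundant class 4 semaphorins were lower. Sema4b averaged 38.2 ± 1.21 CPM in MOSE-PAX8 and 52.8 ± 1.76 CPM in MOSE-NEO (SD, n = 3 each), 1.38-fold lower (edgeR adjusted p = 0.00138). Sema4c, a ligand of Plxnb2, averaged 49.4 ± 6.58 CPM in MOSE-PAX8 and 64.5 ± 6.53 CPM in MOSE-NEO, 1.31-fold lower (edgeR adjusted p = 0.0304). Its call was lost without MOSE-PAX8 1 (0.0910), MOSE-PAX8 3 (0.116), MOSE-NEO 1 (0.0901) or MOSE-NEO 2 (0.0809), over alternatives that ranged from 0.00717 to 0.116. Sema4g, at 7.18 ± 2.04 CPM in MOSE-PAX8 and 8.89 ± 0.838 CPM in MOSE-NEO, was not called (edgeR adjusted p = 0.277, and 0.0438 without MOSE-PAX8 2, in a range of 0.0438 to 0.640).

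The secreted class 3 semaphorins made up most of the family's transcript. Their summed level, in TPM (counts per annotated exon length, scaled to the same sum in each library), was 506, 491 and 461 in the MOSE-PAX8 libraries and 531, 443 and 481 in the MOSE-NEO libraries, with overlap. Membrane semaphorins summed to 126 ± 15.8 TPM in MOSE-PAX8 and 138 ± 13.7 TPM in MOSE-NEO (SD, n = 3 each).

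Sema3d was the most abundant semaphorin per length. It had 287, 259 and 261 CPM in MOSE-PAX8 and 273, 205 and 263 CPM in MOSE-NEO, with overlapping libraries and no call (log2 fold change 0.12 ± 0.12 SE, edgeR adjusted p = 0.456). Its level of 143 ± 6.11 TPM in MOSE-PAX8 was within the spread of that of Sema3f there (147 ± 18.5 TPM), and in MOSE-NEO the values were 127 ± 21 TPM for Sema3d and 113 ± 11.2 TPM for Sema3f (SD, n = 3 each).

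Sema3f, which acts through Nrp2, was the class 3 member that was higher. It averaged 167 ± 19.0 CPM in MOSE-PAX8 and 133 ± 9.38 CPM in MOSE-NEO (SD, n = 3 each), 1.26-fold higher (edgeR adjusted p = 0.0342). The call was lost without MOSE-PAX8 1 (0.117), MOSE-PAX8 2 (0.0786), MOSE-NEO 2 (0.0919) or MOSE-NEO 3 (0.102) and without both lincRNA-rich libraries (0.0774), in a range of 0.0125 to 0.117.

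Sema3c, known for its role in the outflow tract of the heart, was lower, with 145 ± 10.1 CPM in MOSE-PAX8 and 192 ± 12.5 CPM in MOSE-NEO (SD, n = 3 each; 1.33-fold, edgeR adjusted p = 0.00651). Sema3b, a class 3 semaphorin studied as a tumour suppressor in human cancers, was 1.54-fold lower, at 12.2 ± 1.90 CPM in MOSE-PAX8 and 18.7 ± 3.56 CPM in MOSE-NEO (edgeR adjusted p = 0.0175, and 0.0595 without both lincRNA-rich libraries, in a range of 0.00292 to 0.0595). Sema3a, the classical repellent that binds Nrp1, averaged 87.0 ± 1.22 CPM in MOSE-PAX8 and 106 ± 6.30 CPM in MOSE-NEO. This 1.22-fold decrease (edgeR adjusted p = 0.0161) was not called without MOSE-PAX8 1 (0.0511) or MOSE-PAX8 3 (0.0753), in a range of 0.00238 to 0.0753. Sema3e, the ligand of Plxnd1, averaged 128 ± 15 CPM in MOSE-PAX8 and 156 ± 18 CPM in MOSE-NEO and was not called (edgeR adjusted p = 0.0827). It passed with DESeq2 (0.0442) and without MOSE-PAX8 1 (0.0447), in a range of 0.0234 to 0.36.

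**Figure D2:**
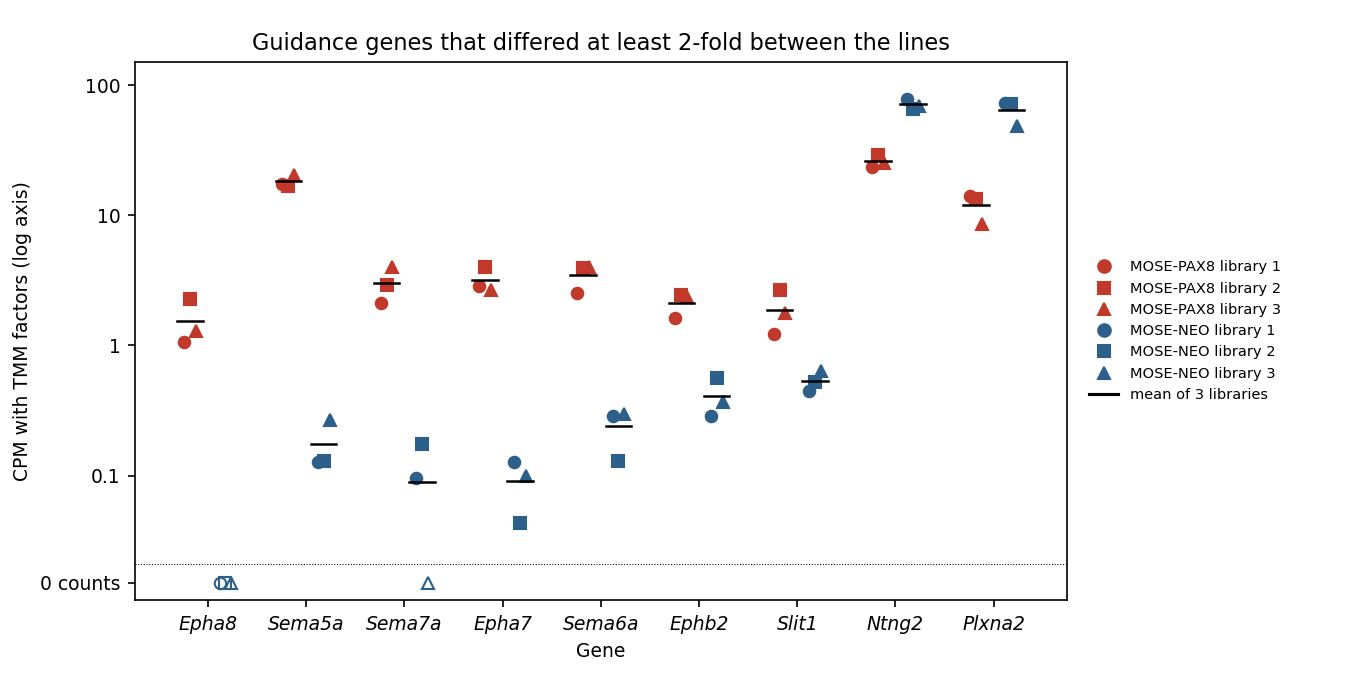
CPM on a log axis in each of the 3 MOSE-PAX8 and 3 MOSE-NEO libraries for the 9 guidance genes that differed at least 2-fold, with the mean of each line as a bar and libraries at 0 counts drawn open at the foot. The 7 higher genes averaged 1.54 to 18.2 CPM in MOSE-PAX8, and the 2 lower genes, Plxna2 and Ntng2, averaged 12 and 25.9 CPM in MOSE-PAX8 and 64.4 and 71.2 CPM in MOSE-NEO.

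Among the semaphorin receptors, 1 of 7 plexins was higher, 2 were lower and neither neuropilin was called, with a median log2 fold change of -0.20 over the 9 genes. Plxna2 had the largest decrease of all 44 members. It had 14, 13.3 and 8.63 CPM in MOSE-PAX8, against 73.1, 71.3 and 48.7 CPM in MOSE-NEO. The lines were far apart, with library 3 the lowest in each, and the level was 5.36-fold lower in MOSE-PAX8 (log2 fold change -2.42 ± 0.21 SE, edgeR adjusted p = 7.59e-05; chr1:194618218-194816869, mm10).

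Plxna4 fell too, to 364 ± 44.3 CPM in MOSE-PAX8, against 546 ± 58.1 CPM in MOSE-NEO (SD, n = 3 each; 1.5-fold lower, edgeR adjusted p = 0.00527). Plxna2 and Plxna4 are the receptors of Sema6a, so the ligand was higher and both receptors lower in MOSE-PAX8. Per length Plxna4 was the larger of these receptors in both lines, at 118 ± 15.3 TPM in MOSE-PAX8 and 172 ± 23.5 TPM in MOSE-NEO, whereas Plxna2 had 3.19 ± 0.805 TPM in MOSE-PAX8 and 16.6 ± 3.82 TPM in MOSE-NEO (SD, n = 3 each).

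Plxna1, the receptor of Sema6d and, with neuropilins, of class 3 semaphorins, rose to 214 ± 4.02 CPM in MOSE-PAX8, against 152 ± 14.9 CPM in MOSE-NEO (SD, n = 3 each; 1.40-fold, edgeR adjusted p = 0.00286). The summed plexin level nevertheless overlapped between the lines, at 854, 942 and 772 TPM in MOSE-PAX8 and 1071, 966 and 863 TPM in MOSE-NEO.

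Plxnb2, a receptor of class 4 semaphorins, supplied 59.1% of the summed plexin level in MOSE-PAX8 and 58.4% in MOSE-NEO. It had 883, 888 and 789 CPM in MOSE-PAX8 and 1015, 1020 and 916 CPM in MOSE-NEO. These libraries did not overlap, but the difference was not called (log2 fold change -0.20 ± 0.09 SE, edgeR adjusted p = 0.120); DESeq2 called it (0.0404, in a range of 0.0404 to 0.382). Plxnb1 averaged 219 ± 40.6 CPM in MOSE-PAX8 and 274 ± 46.0 CPM in MOSE-NEO and was not called (edgeR adjusted p = 0.152, and 0.0296 without MOSE-PAX8 2, in a range of 0.0296 to 0.407). Plxna3 and Plxnd1 were low and not called, with log2 fold changes of 0.05 ± 0.27 and 0.25 ± 0.11 (SE).

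Nrp2, the main neuropilin here, had 166 ± 12.5 TPM in MOSE-PAX8 and 144 ± 13.3 TPM in MOSE-NEO (SD, n = 3 each), and its CPM did not differ beyond the spread of the libraries (log2 fold change 0.16 ± 0.10 SE, edgeR adjusted p = 0.241). Nrp1, the co-receptor of Sema3a and of vascular endothelial growth factor, had a log2 fold change of -0.23 ± 0.11 (SE, edgeR adjusted p = 0.126) and was not called either.

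Ephrin calls also ran in both directions. Both measured A-type ephrins, which are held by a glycolipid anchor, were lower, and 2 of the 3 transmembrane B-type ephrins were higher in MOSE-PAX8, all by less than 2-fold. Other A-type ephrins lie in the chromosome 3 segment and were left out. The summed A-type level was 175, 191 and 166 TPM in MOSE-PAX8 and 219, 230 and 192 TPM in MOSE-NEO, and the summed B-type level 484, 489 and 533 TPM in MOSE-PAX8 and 387, 350 and 401 TPM in MOSE-NEO. The lines did not overlap in either sum, though the highest A-type sum in MOSE-PAX8 (191 TPM) lay close to the lowest in MOSE-NEO (192 TPM).

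Efnb1, an X-linked ephrin needed for the sorting of cells in craniofacial development, averaged 74.7 ± 1.27 CPM in MOSE-PAX8 and 48.6 ± 1.45 CPM in MOSE-NEO (SD, n = 3 each), 1.54-fold higher (edgeR adjusted p = 0.000218). Efnb2, the most abundant ephrin per length and the partner of Ephb4 in vessels, had 592, 552 and 656 CPM in MOSE-PAX8 and 480, 447 and 535 CPM in MOSE-NEO. Its libraries did not overlap, with 1.23-fold more in MOSE-PAX8 and an edgeR adjusted p of 0.0498. That call was lost in the test against a fold of 1.5 and in 9 of the 15 other alternatives. Among these were the edgeR fits without MOSE-PAX8 1 (0.102), MOSE-PAX8 3 (0.197), MOSE-NEO 1 (0.121) or MOSE-NEO 2 (0.172). Over all 15 the adjusted p ranged from 0.0258 to 0.197. Efnb3 was low and uneven, at 1.34, 4.21 and 1.85 CPM in MOSE-PAX8 and 3.72, 2.04 and 1.129 CPM in MOSE-NEO, and was not called.

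Efna5, the main A-type ephrin, averaged 127 ± 5.87 CPM in MOSE-PAX8 and 157 ± 13.8 CPM in MOSE-NEO (SD, n = 3 each; 1.23-fold lower, edgeR adjusted p = 0.0270). The call was lost without MOSE-PAX8 1 (0.0774), MOSE-PAX8 3 (0.116) or MOSE-NEO 2 (0.0816), in a range of 0.00451 to 0.116. Efna2 averaged 15.3 ± 1.22 CPM in MOSE-PAX8 and 20.2 ± 1.94 CPM in MOSE-NEO (1.32-fold lower, edgeR adjusted p = 0.0191) and lost its call without MOSE-PAX8 3 (0.0815) or MOSE-NEO 2 (0.0615), in a range of 0.00103 to 0.0815.

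Of the 9 Eph receptors, 4 were higher, 1 was lower and 4 were not called, with a median log2 fold change of 0.36. Epha2, a receptor widely expressed in epithelia, was the most abundant per length and the lower one. It had 297, 287 and 298 CPM in MOSE-PAX8, against 419, 369 and 441 CPM in MOSE-NEO. No library overlapped, and the decrease was 1.39-fold (log2 fold change -0.48 ± 0.09 SE, edgeR adjusted p = 0.00332).

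Epha4, a receptor that binds both A-type and B-type ephrins, changed the other way. It had 245, 218 and 261 CPM in MOSE-PAX8, against 161, 92.6 and 140 CPM in MOSE-NEO. MOSE-NEO 2 was the lowest, and all MOSE-PAX8 libraries were higher than all MOSE-NEO libraries (1.84-fold, log2 fold change 0.88 ± 0.18 SE, edgeR adjusted p = 0.00613). Epha2 made up 67.2% ± 1.32 of the summed EphA level in MOSE-PAX8 and 84.3% ± 2.80 in MOSE-NEO (SD, n = 3 each). The EphA sum itself overlapped, at 422, 426 and 437 TPM in MOSE-PAX8 and 503, 396 and 484 TPM in MOSE-NEO.

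The other higher Eph receptors came from levels near or at 0 in MOSE-NEO. Epha7, best known from the topographic wiring of the brain, had 2.84, 4.02 and 2.65 CPM in MOSE-PAX8, against 0.127, 0.0435 and 0.0996 CPM in MOSE-NEO. No MOSE-PAX8 library overlapped with MOSE-NEO, and the level was 32.4-fold higher (log2 fold change 5.02 ± 0.38 SE, edgeR adjusted p = 3.56e-05; chr4:28813131-28967499). Epha8, a neural A-type Eph receptor, had 39, 72 and 42 counts in MOSE-PAX8 and 0 in all 3 MOSE-NEO libraries. Set against 3 counts over the MOSE-NEO libraries it was at least 42.8-fold higher (edgeR adjusted p = 0.000684; chr4:136929419-136956816).

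Ephb2, a receptor that positions cells along intestinal crypts, had 1.61, 2.42 and 2.34 CPM in MOSE-PAX8, against 0.286, 0.565 and 0.365 CPM in MOSE-NEO, again without overlap (5.31-fold higher, log2 fold change 2.41 ± 0.33 SE, edgeR adjusted p = 0.000779; chr4:136647539-136835988). Epha8 and Ephb2 are neighbours on chromosome 4, and the median log2 fold change of the 50 tested genes on either side of each was 0.03. These receptors stayed low per length, at 0.773 to 1.51 TPM on average in MOSE-PAX8, so that they added little to the family's sum.

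Ephb4, the most abundant EphB receptor, averaged 59.7 ± 1.93 CPM in MOSE-PAX8 and 57.8 ± 4.95 CPM in MOSE-NEO (SD, n = 3 each) and was not called (log2 fold change 0.05 ± 0.08 SE, edgeR adjusted p = 0.713). The summed EphB level was 119 ± 10.2 TPM in MOSE-PAX8 and 119 ± 5 TPM in MOSE-NEO. Ephb6, whose kinase is inactive, averaged 40.0 ± 5.47 CPM in MOSE-PAX8 and 48.0 ± 5.66 CPM in MOSE-NEO. It was not called (edgeR adjusted p = 0.136) except without MOSE-PAX8 2 (0.0336), without both lincRNA-rich libraries (0.0484), with the local chromosome median removed (0.0442) and in 1 further alternative, in a range of 0.0336 to 0.369. Ephb3 and Epha1 were not called, with log2 fold changes of 0.36 ± 0.16 and -0.13 ± 0.39 (SE). Exons of Epha1 overlap those of the much more abundant antisense gene Zyx by 236 bases, and the strand setting of the counting is not given in the sources used here, so its counts are uncertain.

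**Figure D3:**
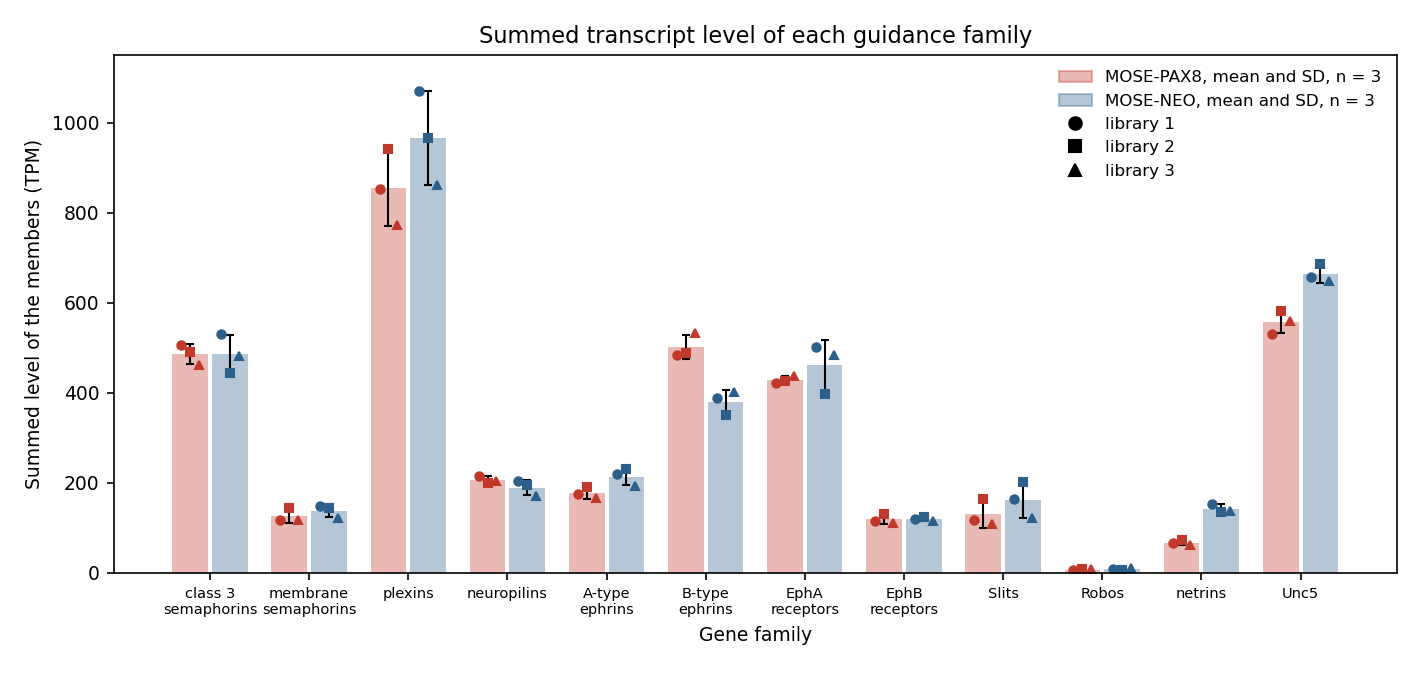
Summed TPM of the members of each guidance family in every library, with the mean (bar) and SD of 3 MOSE-PAX8 and 3 MOSE-NEO libraries. The lines were separate in both ephrin subclasses, netrins and Unc5 and overlapped in the other families.

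Slit and Robo genes were mostly uncalled. Slit1, a neural Slit, was higher, with 1.23, 2.64 and 1.76 CPM in MOSE-PAX8, against 0.445, 0.522 and 0.631 CPM in MOSE-NEO. The libraries of the lines were separate, and the difference was 3.49-fold (log2 fold change 1.80 ± 0.35 SE, edgeR adjusted p = 0.00458; chr19:41600257-41743665).

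Slit3, expressed in mesenchyme and mesothelium in mouse, held 97.9% of the summed Slit level in MOSE-PAX8 and 99.1% in MOSE-NEO. It had 156, 205 and 142 CPM in MOSE-PAX8 and 214, 279 and 170 CPM in MOSE-NEO. Its libraries overlapped and it was not called (log2 fold change -0.40 ± 0.19 SE, edgeR adjusted p = 0.149). It was called without MOSE-PAX8 2 (0.0433) or MOSE-NEO 3 (0.0438), in a range of 0.0115 to 0.446. Slit2 had 6.62, 6.95 and 6.47 CPM in MOSE-PAX8 and 5.21, 4.30 and 6.01 CPM in MOSE-NEO, without overlap but not called (edgeR adjusted p = 0.108).

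The receptors were scarce beside Slit3. Robo1 and Robo2, the principal Slit receptors, had 32 and 10 counts over the MOSE-PAX8 libraries and 2 and 5 over the MOSE-NEO libraries and were not tested. Robo3, which in mammals binds Slits weakly, and Robo4, known from endothelium, summed to 6.94 ± 0.959 TPM in MOSE-PAX8 and 8.03 ± 1.81 TPM in MOSE-NEO (SD, n = 3 each). Neither was called (log2 fold changes -0.43 ± 0.24 and -0.16 ± 0.27 SE). Among the endothelial markers Pecam1 had 9 counts in MOSE-PAX8 and 43 in MOSE-NEO, with the highest MOSE-NEO value in MOSE-NEO 3, as for Robo4. Esam had 60 counts in MOSE-PAX8 and 58 in MOSE-NEO, with its highest MOSE-NEO value in MOSE-NEO 1 instead. Tek had 23 counts in MOSE-PAX8 and 9 in MOSE-NEO, Emcn, Vwf and Tie1 had at most 3 in a line, and Cdh5 had 0. The part of endothelial RNA in the Robo4 level was not tested.

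All 3 netrin and Unc5 members were lower in MOSE-PAX8, with a median log2 fold change of -0.84. Ntng2, a netrin tethered to the membrane by a glycolipid that acts at synapses, had 23.7, 29.0 and 25.0 CPM in MOSE-PAX8, against 78.2, 65.9 and 69.6 CPM in MOSE-NEO. The lines did not overlap, with 2.75-fold less in MOSE-PAX8 (log2 fold change -1.46 ± 0.10 SE, edgeR adjusted p = 2.59e-05; chr2:29194541-29253005). Its exons share 558 bases on the same strand with 6530402F18Rik, so the division of reads between these genes is uncertain.

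Ntn4, a secreted netrin that binds laminins of the basement membrane, had 32.7, 29.5 and 27.6 CPM in MOSE-PAX8, against 52.5, 54.7 and 53.3 CPM in MOSE-NEO. This was 1.79-fold lower without overlap (log2 fold change -0.84 ± 0.08 SE, edgeR adjusted p = 0.000152). The summed netrin level was 65.4, 71.9 and 61.5 TPM in MOSE-PAX8 and 154, 136 and 137 TPM in MOSE-NEO. Ntn1, the netrin through which Dcc and Unc5 receptors are best known, had 20 counts over the MOSE-PAX8 libraries and 2 over the MOSE-NEO libraries. Dcc had 0 counts in MOSE-PAX8 and 1 in MOSE-NEO. The neogenin gene Neo1 was abundant, at 348 ± 15.1 CPM in MOSE-PAX8 and 396 ± 29.0 CPM in MOSE-NEO (SD, n = 3 each). Its libraries did not overlap, but it was not called (edgeR adjusted p = 0.127).

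Unc5b, a netrin receptor of vessels and epithelia, had the highest level per length of all members, above 98.6% of the genes tested. It had 745, 766 and 778 CPM in MOSE-PAX8, against 900, 983 and 938 CPM in MOSE-NEO. The lines did not overlap, and the level was 1.23-fold lower in MOSE-PAX8 (log2 fold change -0.30 ± 0.08 SE, edgeR adjusted p = 0.0190). The call was lost without MOSE-PAX8 1 (0.0701), MOSE-PAX8 3 (0.0681) or MOSE-NEO 2 (0.0586), and with the local chromosome median of -0.16 removed (0.239), in a range of 0.000230 to 0.239.

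**Figure D4:**
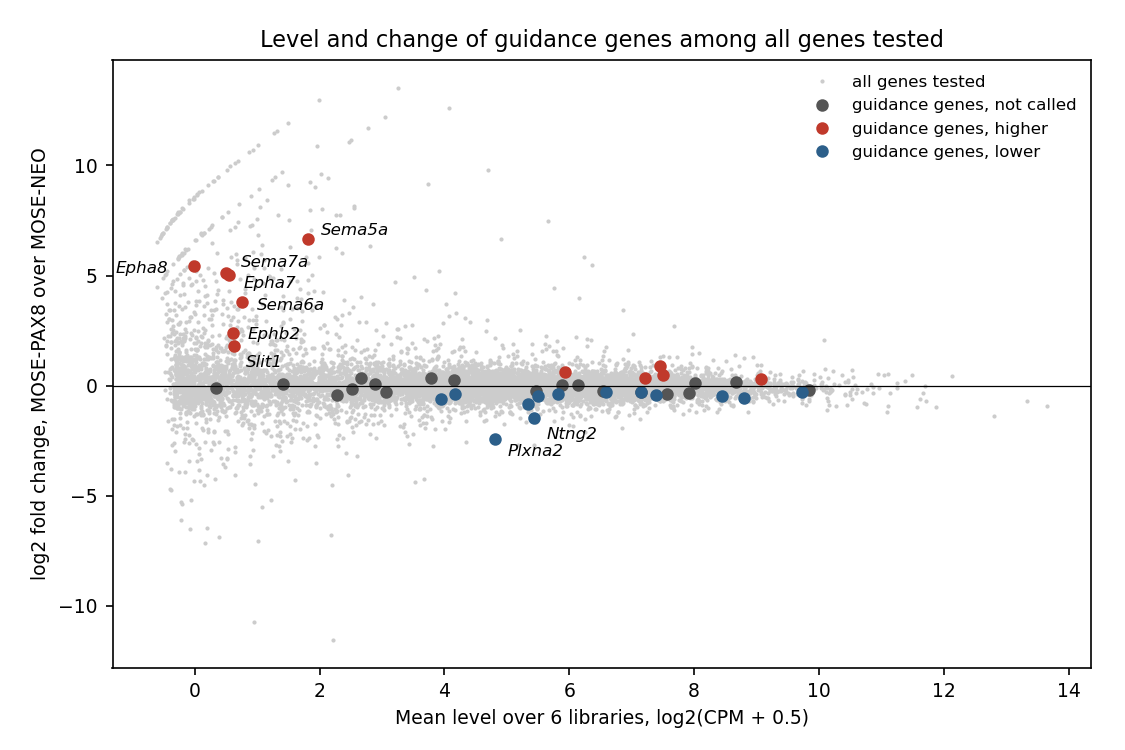
Log2 fold change, MOSE-PAX8 over MOSE-NEO, against the mean level over 6 libraries as log2(CPM + 0.5), with guidance genes in colour over all 12313 genes tested in grey. Large increases lay at the low end of the level and the abundant guidance genes lay near 0; Epha8 is drawn at its lower bound and grey genes with 0 counts in a line at their fitted value.

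The plot of level against change sets the called members among all genes. The 7 genes at least 2-fold higher averaged 1.54 to 18.2 CPM in MOSE-PAX8, and the 5 genes higher by less averaged 74.7 to 600.1 CPM there. Of the 25 called members, 10 kept their call in every alternative run: Sema5a, Sema6a, Sema7a, Plxna2, Epha7, Epha8, Ephb2, Slit1, Ntn4 and Ntng2. Sema3c, Sema4b, Plxna1, Plxna4, Efnb1, Epha2 and Epha4 lost theirs only in the test against a fold of 1.5. Apart from that test, 17 members kept their call throughout.

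Within the lines, some members were highest or lowest in the lincRNA-rich libraries. Over all tested genes the deviations of MOSE-PAX8 2 and MOSE-NEO 1 from their line means correlated at 0.67. The share of all genes with the same order was not counted, so the members' counts cannot be set against it. In 11 members the highest MOSE-PAX8 library was MOSE-PAX8 2 and the highest MOSE-NEO library was MOSE-NEO 1, among them Plxna1, Epha7, Epha8 and Ntng2. In 3 members, Sema5a, Efnb1 and Ephb4, those libraries were the lowest of each line. The part of lincRNA content in these levels was not tested.

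The 17 genes of the families below 60 counts had 0 to 34 counts over the 6 libraries. Sema5b, Epha5 and Unc5d were at 0 in every library, where 3 counts would be 0.0825 to 0.127 CPM. The others included Sema6b with 12 counts in MOSE-PAX8 and 2 in MOSE-NEO, and Epha3 with 6 counts in MOSE-PAX8 and 0 in MOSE-NEO.

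Guidance receptors act through co-receptors, small GTPases, kinases and actin regulators, and 92 such partner genes were examined outside the same chromosome regions. Of the 72 that were tested, 18 were higher, 14 lower and 40 not called (44.4% called, against 33.9% of all genes), with a median log2 fold change of 0.03. Co-receptors, other receptors and other ligands had 7 higher and 1 lower of 15 tested. Kinases, adaptors and actin regulators had 8 higher and 6 lower of 32. The count of lower partners was 8 without MOSE-PAX8 3 and 9 without MOSE-NEO 3.

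The large increases were again in genes near 0 in MOSE-NEO. Itga1, the alpha subunit of a collagen receptor that Sema7a can engage, averaged 19.0 ± 4.87 CPM in MOSE-PAX8 and 0.331 ± 0.123 CPM in MOSE-NEO (SD, n = 3 each; 56.8-fold higher, edgeR adjusted p = 5.24e-06). Rgma, a repulsive ligand of neogenin, averaged 5.82 ± 1.16 CPM in MOSE-PAX8 and 0.0873 ± 0.0505 CPM in MOSE-NEO (66.8-fold higher, edgeR adjusted p = 1.2e-05). L1cam, an adhesion molecule that joins neuropilin complexes, had 73, 103 and 114 counts in MOSE-PAX8 and 0 in all MOSE-NEO libraries, at least 81.1-fold higher against 3 counts over the MOSE-NEO libraries (edgeR adjusted p = 0.000168). Rgma and L1cam reached the level of the low-count filter in no MOSE-NEO library, and Itga1 in 1. Each reached it in all 3 MOSE-PAX8 libraries, and the MOSE-NEO libraries alone would not have brought them into the test.

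Other higher partners included signalling components. Dpysl3, a collapsin response mediator protein of the semaphorin pathway, averaged 10.5 ± 2.32 CPM in MOSE-PAX8 and 0.482 ± 0.296 CPM in MOSE-NEO (SD, n = 3 each; 20.8-fold higher, edgeR adjusted p = 5.7e-05). It reached the filter level in 3 MOSE-PAX8 and 2 MOSE-NEO libraries, so it too depended on MOSE-PAX8 to enter the test. Fyn, a Src-family kinase downstream of plexins and Eph receptors, averaged 10.9 ± 2.87 CPM in MOSE-PAX8 and 0.852 ± 0.449 CPM in MOSE-NEO (12.4-fold higher, edgeR adjusted p = 0.000108). Lrig3, which acts with netrin in shaping the mouse inner ear, averaged 32.0 ± 2.07 CPM in MOSE-PAX8 and 16.0 ± 0.650 CPM in MOSE-NEO (2.00-fold higher, edgeR adjusted p = 6.75e-05).

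A scaffold and an actin-binding protein were among the decreases. Both came from the list of kinases, adaptors and actin regulators, where 8 genes were higher and 6 lower. Grip1, a scaffold bound by B-type ephrins and EphB receptors, averaged 21.6 ± 1.29 CPM in MOSE-PAX8 and 49.4 ± 1.25 CPM in MOSE-NEO (SD, n = 3 each; 2.28-fold lower, edgeR adjusted p = 1.73e-05). Ablim1, an actin-binding LIM protein, averaged 17.0 ± 0.967 CPM in MOSE-PAX8 and 44.6 ± 5.26 CPM in MOSE-NEO (2.62-fold lower, edgeR adjusted p = 3.29e-05). Flrt1, a membrane protein of the family that binds Unc5 receptors, averaged 31.4 ± 4.91 CPM in MOSE-PAX8 and 63.3 ± 14.6 CPM in MOSE-NEO (2.01-fold lower, edgeR adjusted p = 0.00304). Chn2, a chimaerin that inactivates Rac, and Dpysl5, a relative of Dpysl3, were 1.67-fold and 2.87-fold lower (edgeR adjusted p = 0.00142 and 0.00478).

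**Figure D5:**
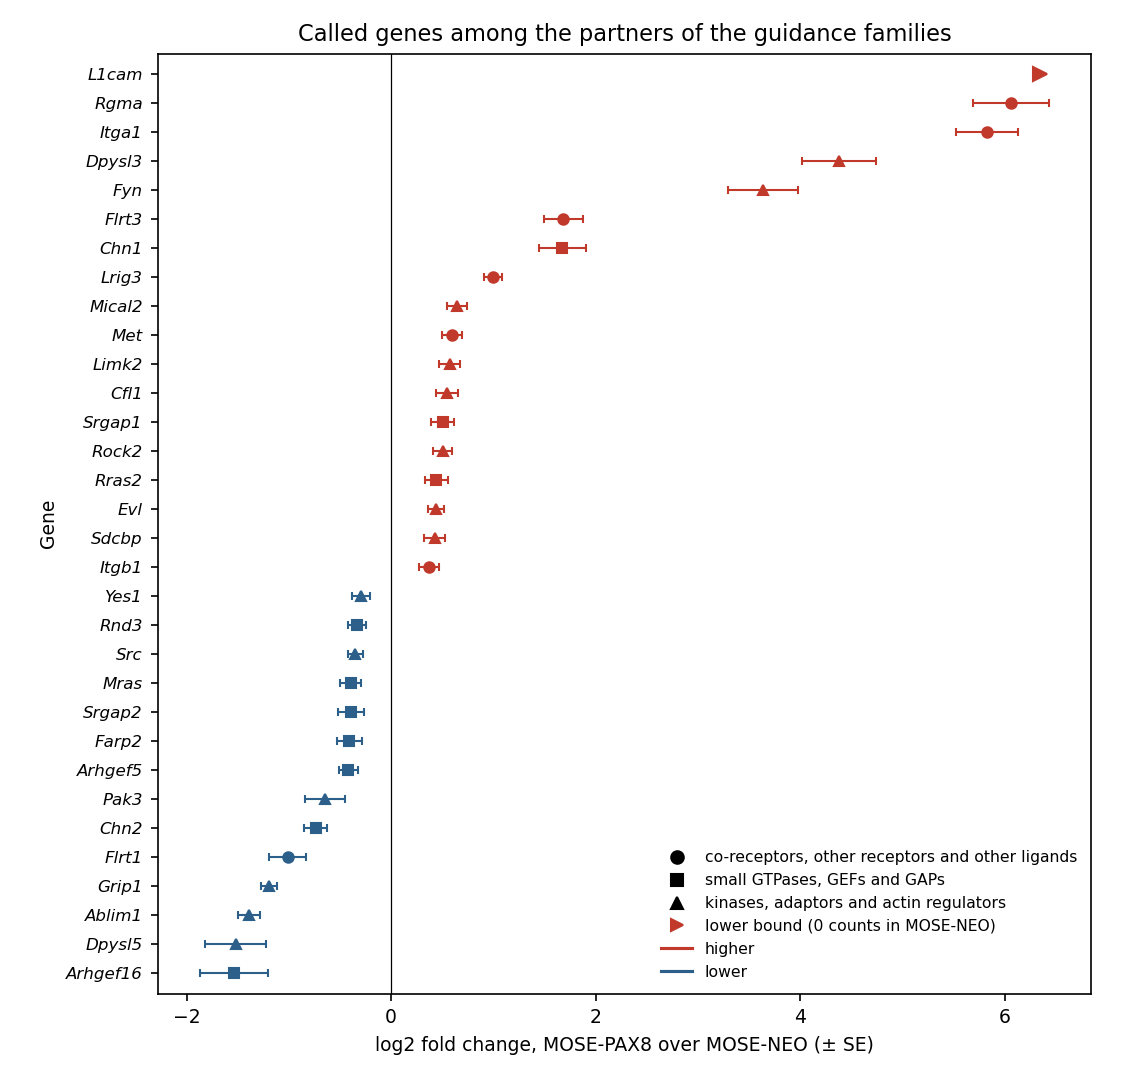
Log2 fold change, MOSE-PAX8 over MOSE-NEO, with its SE for the 32 called partner genes, with point shapes for the 3 partner lists and a triangle for the lower bound of L1cam. Of these, 18 lay above 0 and 14 below, and the largest increases, in L1cam, Rgma and Itga1, exceeded every decrease in size.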

How the data were processed

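Each deposited table holds the raw count of reads per gene for 1 library. Per the submitters' processing notes, the tools named are cutadapt 1.13, STAR, HTSeq 0.6.1p1 and DESeq2, on mm10. The sources used here give neither the annotation nor the strand setting, nor how reads with several alignments were treated. Libraries of a line differed by more than sampling noise (chi-square per gene from 13.48 to 43.04) and were kept as separate replicates.

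GENCODE M21 (mm10) supplied symbols, positions and exon lengths, and 24991 identifiers matched it. MOSE-PAX8 was tested against MOSE-NEO in R 4.3.3 with edgeR 4.0.16 (quasi-likelihood test, TMM factors, filterByExpr, Benjamini-Hochberg adjustment over all genes, called below 0.05), tested on simulated data. CPM used TMM factors, and a gene at 0 counts in a line was set against 3 counts. This floor covers counting error only. Alternatives changed the normalization, the filter, the test (DESeq2 1.42.0, limma 3.58.1) and the libraries, and removed the median change of the 50 genes on either side. A last one tested against a fold of 1.5, and the ranges of adjusted p given for single genes leave it out.

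The guidance genes, partner lists and markers were chosen with earlier results of these data known. Every member is accounted for. Values per library are given for members called at least 2-fold and the most abundant of each role, and partners are named for the 5 smallest adjusted p per direction or a log2 fold change of at least 2. Dcc and Neo1 are named besides, as netrin receptors. In the families 1 gene, Ntn3, was not analysed here, and 8 were left out for their position. The sequences are RefSeq promoter windows on GRCm38.p6.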

Additional observations from a re-analysis of the deposited data

How the results depend on the processing

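No member's call was reversed in any alternative run. Tested against a fold of 1.5 with edgeR, 7 guidance genes were higher and 3 lower, as were 700 and 370 of all genes and 8 and 3 of the partners. Leaving out each library in turn gave 10 to 11 higher and 8 to 17 lower guidance genes, 15 to 18 higher and 8 to 14 lower partners, and 1545 to 2065 higher and 1314 to 1843 lower genes over all; the lowest counts of lower genes came without MOSE-PAX8 3. DESeq2 called 12 guidance genes higher and 15 lower. The deviations of same-numbered libraries from their line means had correlations of -0.49, 0.06 and 0.48, and not every library correlated best with its own number. The largest in size were 0.67 for MOSE-PAX8 2 with MOSE-NEO 1 and -0.71 for MOSE-PAX8 2 with MOSE-NEO 3. With 3 libraries per line these correlations cannot show whether the numbers pair the samples. With the replicate block 13 guidance genes were higher and 16 lower, 18 and 14 partners, and 2070 and 1863 of all genes; Sema3e (adjusted p = 0.0234), Ephb3 (0.0336), Ephb6 (0.0431) and Slit3 (0.0115) were called with the block and not in the edgeR fit without it. Of the 19 uncalled members, 7 were called in at least 1 alternative. Genes near 0 counts in MOSE-NEO rest on few reads there, and 3 libraries per line limit the smaller differences.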
